A study of Mus musculus with 8 samples.

Results

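The 49 proteasome genes described here are the rows of a table of 14457 genes whose symbol begins with Psm, then a letter from a to g, then a number. The rule reads symbols and no measured value. The set holds 7 alpha subunits of the 20S core that most tissues use and Psma8, an alpha subunit known from testis. It also holds 7 constitutive and 3 immune beta subunits of the core, 6 ATPases and 11 non-ATPase subunits of the 19S regulatory particle, 3 chaperones of 19S assembly, 5 activator genes, the inhibitor gene Psmf1 and 4 chaperones of 20S assembly. The symbol rule also takes in Psmc3ip, which encodes a cofactor of meiotic recombination and no proteasome subunit, so it is described apart from the other 48 genes.

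The proteasome is the protease that degrades proteins tagged with ubiquitin. Its 20S core is a barrel of stacked rings, with alpha subunits in the outer rings that gate the entrance and beta subunits in the inner rings, some of which carry the cutting sites. The 19S particle caps the barrel, binds ubiquitin chains, removes them and feeds the unfolded substrate inwards. In bone-forming osteoblasts the proteasome is known for the turnover of the transcription factor RUNX2 and of beta-catenin.

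The study looked for changes in gene expression behind the impaired maturation of osteoblasts that lack the sulfate transporter SLC26A2. Bulk RNA was sequenced from femoral cortical shafts of mice at postnatal day 7, in 4 libraries with Col2.3kb-Cre and homozygous floxed Slc26a2 (fl/fl, called CKO) and 4 libraries with Col2.3kb-Cre and heterozygous floxed Slc26a2 (fl/+, called control). All 8 libraries carried the Cre transgene, and the control mice were heterozygous for the floxed allele, so no group has the gene intact without Cre. The driver is a stretch of the Col1a1 promoter that is active in osteoblasts. Which other cells of the shaft keep their Slc26a2 was not tested. The labels number the libraries without saying whether they stem from different mice. Each group held libraries with and without expression of Y-linked genes, so the libraries of a group do not all stem from the same mouse. How many mice each group holds is not known. All p-values therefore rest on the spread among these libraries, which may be technical in part.

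Values are FPKM, which count fragments relative to the length of the transcript and to the mapped fragments of the library, and so give a level per length and per library. Sequencing depth is unknown. Fold changes below are differences of mean log2(FPKM + 1), CKO minus control, from limma, with Benjamini-Hochberg adjustment over the 12748 genes that reached 1 FPKM in at least 4 of the 8 libraries. All 49 proteasome genes passed that filter. Genes called higher or lower have an adjusted p under 0.05.

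Slc26a2 itself was listed at 2.93, 2.08, 0.706 and 0.8289 FPKM in CKO replicates 1 to 4, against 4.37, 7.49, 4.85 and 4.85 FPKM in control replicates 1 to 4. Every CKO library was below every control library. The log2 fold change was -1.34 (SE 0.30, limma adjusted p = 0.0412), and the exact permutation test (two-sided, 70 assignments) gave p = 0.0286, the smallest it can give.

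Genotype was not the only difference between the libraries. FPKM totals ran from 431612 to 598419 in CKO libraries and from 352283 to 379669 in control libraries, with no overlap. Mitochondrial transcripts made up 2.92% of the total in CKO replicate 4, against 9.13% to 14.8% in the others, and 155 genes were listed at 0 there, against 5 to 31 in the others. Summed markers of osteoblasts were at 11326 to 35279.8 FPKM in CKO libraries and 35859 to 44540.1 FPKM in control libraries. The neutrophil markers summed to 6480 to 28409 FPKM in CKO libraries and to 913 to 4250 FPKM in control libraries, with all 12 above 0 in log2 fold change. The erythroid markers summed to 18031 to 70815 FPKM in CKO libraries and to 3860 to 13066 FPKM in control libraries, with all 10 above 0. The megakaryocyte markers were also higher in every CKO library (259 to 559 FPKM, against 19.8 to 174 FPKM in control libraries), and the endothelial markers were lower (76.4 to 136 FPKM, against 161 to 198 FPKM). B cell, macrophage, muscle and osteoclast markers overlapped between the groups, and none of these markers was listed at 0 in any library. In bulk tissue, a change in the share of a cell type and a change of RNA per cell cannot be told apart. The part of these cell types in the proteasome values was not tested beyond a fit with marrow markers (neutrophil, erythroid and B cell) as a covariate.

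Most of the 49 genes had higher mean FPKM in CKO shafts. The largest fold changes of this set were among genes of the core and of its assembly chaperones. Of the 49 genes, 12 were called higher in CKO libraries and 0 lower, where 3.88% of all genes tested were called higher (495 genes) and 0.651% lower (83 genes). The 12 were Psma2, Psma5, Psma6, Psmb1, Psmb3, Psmb6 and Psmb7 of the core, Psmd13 of the 19S particle, the chaperones Psmd9, Psmg3 and Psmg4, and the non-subunit Psmc3ip. Their adjusted p-values lay close to the threshold, from 0.0388 to 0.0472. With quantile normalization the calls over all genes split as 137 higher and 221 lower, and Psmg4 was the gene of the 49 still called (1.07% of all genes were called higher).

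At an unadjusted p under 0.05, 38 of the 49 were higher, against 15.9% of all genes, and 0 were lower, against 9.45%. For 35 of the 49, every CKO library was above every control library, against 12.7% of all genes. For 0 of the 49 was every CKO library below every control library, against 6% of all genes, and the groups overlapped for 14. The log2 fold change was above 0 for 48 of the 49, against 51.1% of all genes, and for 40 of the 49 when every library was scaled to the same FPKM total, against 25% of all genes. Its median was 0.80 over the 49 and 0.015 over all genes tested. With equal FPKM totals these medians were 0.36 over the 49 and -0.37 over all genes, so the distance between them was 0.79 as deposited and 0.73 with equal totals.

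The calls changed with single libraries. Without CKO replicate 1, 2 or 3, or without control replicate 2, 3 or 4, none of the 49 genes and none of all genes tested was called by limma. At an unadjusted p under 0.05, between 34 and 38 of the 49 were still higher in those fits, where 11.4% to 14.7% of all genes were. Without CKO replicate 4, 33 of the 49 were called higher (12% of all genes), and without control replicate 1, 15 were (4.73%). The log2 fold change stayed above 0 for 47 or 48 of the 49 in each of these fits.

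**Figure D1:**
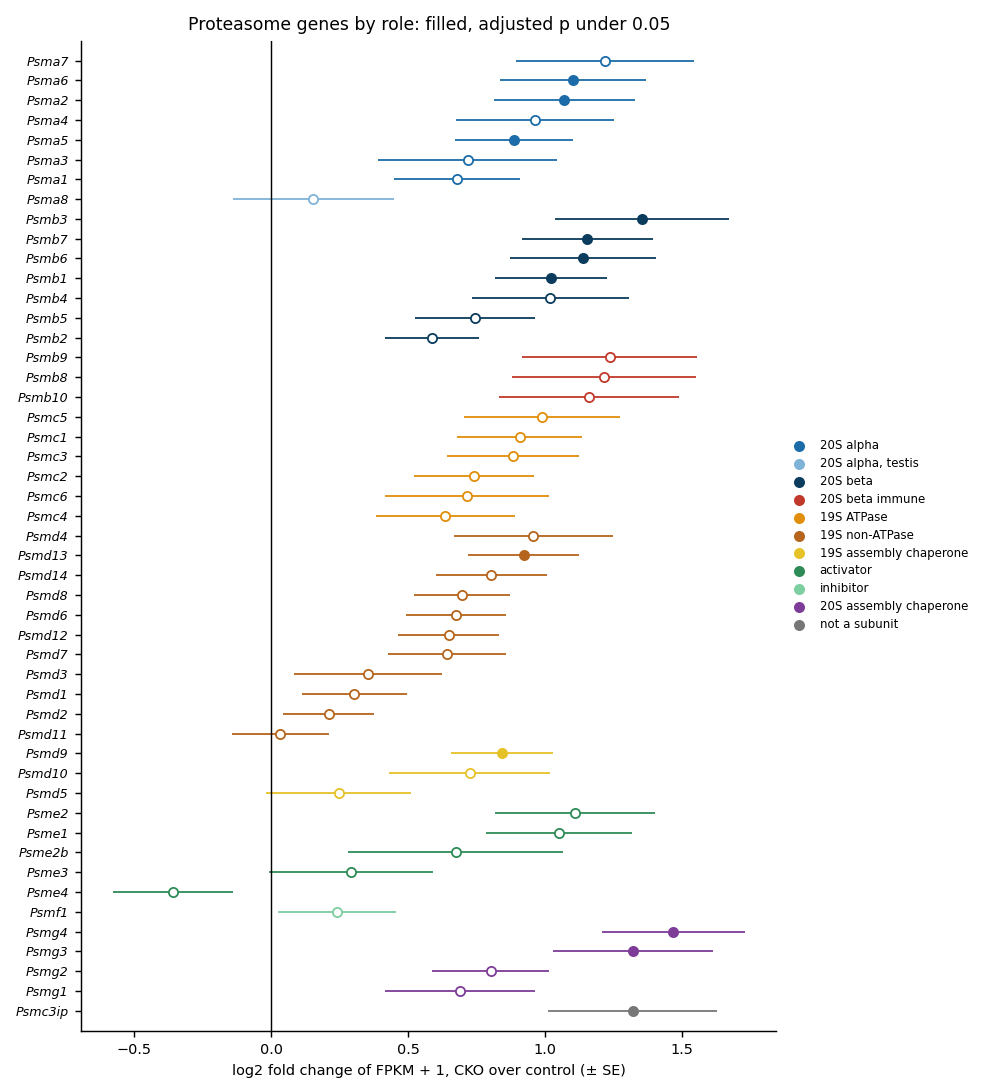
Log2 fold change of FPKM + 1, CKO over control, for each of the 49 genes, grouped by role and ordered by size within a role. Points are limma estimates from 4 libraries a group with bars of 1 SE, filled where the adjusted p is under 0.05. All points except Psme4 lie right of 0, and the 20S assembly chaperone Psmg4 lies farthest right at 1.47.

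Summed over the 49 genes, FPKM was 3077 ± 712 in CKO libraries and 1593 ± 166 in control libraries (SD, n = 4 each). As a share of all FPKM the sum was 0.597% ± 0.049 in CKO libraries and 0.437% ± 0.039 in control libraries. The lowest CKO share was 0.557% and the highest control share 0.490%, so the groups did not overlap on this scale either. The constitutive 20S genes alone took 0.311% ± 0.038 of all FPKM in CKO libraries and 0.206% ± 0.015 in control libraries. The 17 genes of 19S subunits took 0.201% ± 0.026 in CKO libraries and 0.168% ± 0.012 in control libraries, and these ranges overlapped (0.167% to 0.231% against 0.157% to 0.182%).

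The alpha subunits form the outer rings of the core. Of Psma1 to Psma7, 3 were called higher (3.88% of all genes) and 0 lower (0.651%), and 6 were higher at an unadjusted p under 0.05 (15.9%). The median log2 fold change was 0.96 (range 0.68 to 1.22). Psma2, which encodes subunit alpha 2, was at 38.0, 38.2, 75.9 and 34.4 FPKM in CKO replicates 1 to 4, against 22.8, 19.3, 18.8 and 21.3 FPKM in control replicates 1 to 4. All CKO libraries were above all control libraries, and replicate 3 stood far above the other CKO libraries. Psma2 had a log2 fold change of 1.07 (SE 0.26, adjusted p = 0.0467 by limma).

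Psma5, which encodes alpha 5, was at 47.9, 44.2, 70.5 and 61.6 FPKM in CKO replicates 1 to 4, against 36.5, 29.2, 26.3 and 26.5 FPKM in control replicates 1 to 4. The groups did not overlap, and control replicate 1 was the highest control. Its log2 fold change was 0.89 (SE 0.21, adjusted p = 0.0472 by limma). Psma6, another alpha subunit, was at 106 and 111 FPKM in CKO replicates 1 and 2 and at 162 and 233 FPKM in CKO replicates 3 and 4, against 74.7, 63.0, 62.5 and 68.8 FPKM in control replicates 1 to 4. Again the lowest CKO library was above the highest control. Psma6 had a log2 fold change of 1.10 (SE 0.27, adjusted p = 0.0467 by limma).

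Psma7, the alpha subunit with the largest fold change, did not pass the threshold (1.22, SE 0.33, adjusted p = 0.0584 by limma). It had 123 to 316 FPKM in CKO libraries and 73.6 to 96.9 FPKM in control libraries. Psma3 was the alpha subunit of this set whose groups overlapped, with 18.95 FPKM in CKO replicate 4, against 18.2 to 23.9 FPKM in control libraries. Psma8, the subunit known from testis, was near the limit of the filter at 0.245 to 2.48 FPKM in CKO libraries and 0.616 to 1.51 FPKM in control libraries. Its log2 fold change was 0.15 (SE 0.29) and turned below 0 with equal FPKM totals (-0.071).

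The beta subunits form the inner rings, and Psmb5, Psmb6 and Psmb7 encode the ones with the cutting sites. Of Psmb1 to Psmb7, 4 were called higher (3.88% of all genes) and 0 lower (0.651%). All 7 had every CKO library above every control library (12.7% of all genes). Their median log2 fold change was 1.02 (range 0.59 to 1.35). Psmb3, a structural subunit, was at 105 and 119 FPKM in CKO replicates 1 and 2 and at 280.4 and 219.6 FPKM in CKO replicates 3 and 4, against 76.6, 59.0, 58.1 and 65.6 FPKM in control replicates 1 to 4. It had the largest fold change among the genes of core subunits (1.35, SE 0.32, adjusted p = 0.0453 by limma). Psmb1, another structural subunit, was at 83.7, 78.1, 119 and 114 FPKM in CKO replicates 1 to 4, against 50.04, 43.7, 45.2 and 50.3 FPKM in control replicates 1 to 4. Control libraries were tight here, and the log2 fold change was 1.02 (SE 0.20, adjusted p = 0.0388 by limma).

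Psmb6, the caspase-like site, was at 139, 133, 192 and 275 FPKM in CKO replicates 1 to 4, against 83.9, 69.7, 70.3 and 98.1 FPKM in control replicates 1 to 4. Its log2 fold change was 1.14 (SE 0.27, adjusted p = 0.0453 by limma). Psmb7, the trypsin-like site, was at 79.8, 87.5, 141 and 93.9 FPKM in CKO replicates 1 to 4, against 59.2, 39.1, 40.1 and 38.4 FPKM in control replicates 1 to 4. Control replicate 1 stood above the other controls, and still below every CKO library. Psmb7 had a log2 fold change of 1.16 (SE 0.24, adjusted p = 0.0388 by limma).

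Psmb5, the chymotrypsin-like site, was at 91.2, 84.4, 114 and 127 FPKM in CKO replicates 1 to 4, against 73.6, 56.2, 49.0 and 67.7 FPKM in control replicates 1 to 4. The groups did not overlap, but its log2 fold change of 0.74 (SE 0.22) did not pass the threshold (adjusted p = 0.0732 by limma). Psmb2 had the smallest change of the 7 (0.59, SE 0.17, adjusted p = 0.0713 by limma) and the most even CKO libraries, at 72.8 to 81.4 FPKM, against 45.8 to 55.1 FPKM in control libraries. When the trend of fold change with transcript length was removed, the log2 fold changes of Psmb2 (-0.35) and Psmb5 (-0.15) were below 0.

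**Figure D2:**
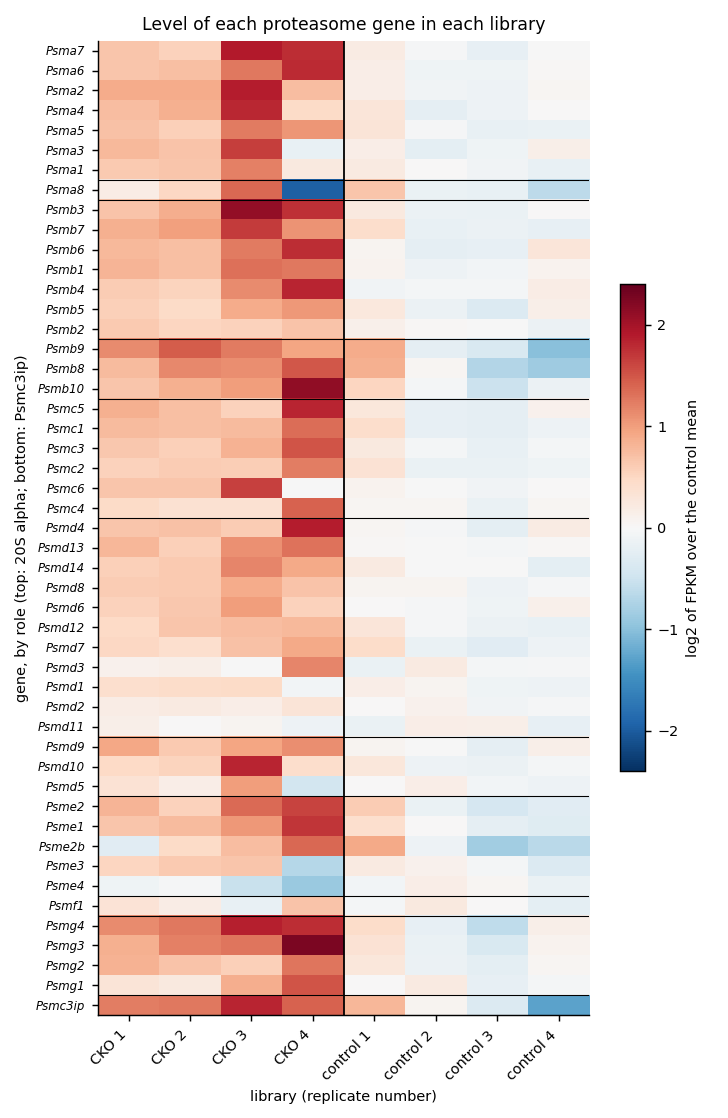
Log2 of each gene's FPKM over its control mean, with 1 row per gene, grouped by role, and 1 column per library. On the log2(FPKM + 1) scale, the mean of CKO replicates 1 and 2 was above the control mean for 48 of the 49 genes. CKO replicates 3 and 4 were both above that CKO mean for 27 of the 49. Control replicate 1 is the highest control library for 34 of the 49 genes.

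In mammals, genes of the constitutive proteasome are known to be induced together by the transcription factor NRF1 (Nfe2l1), which binds antioxidant response elements, and their promoters often hold CCAAT boxes bound by NF-Y. Immune subunit genes are known targets of interferon signalling. The promoter stretches below run from 250 bases before to 50 bases after a RefSeq transcript start (GRCm38.p6, given 5′ to 3′ on the gene's strand). They are shown because Psmb3 and Psmg4 had the largest fold changes of a core subunit and of all 49 genes, and because Psmb5 and Psmb6 are the constitutive counterparts of the immune subunits Psmb8 and Psmb9. Capitals mark matches on either strand to TGACNNNGC (the core of the antioxidant response element), CCAAT, GAAA, any 2 bases and GAAA again (an interferon-type element) or TTCNNNGAA (a STAT-type element), and matches of different motifs overlapped in 0 cases.
Psmb3 (chr11:97703184-97703483, + strand): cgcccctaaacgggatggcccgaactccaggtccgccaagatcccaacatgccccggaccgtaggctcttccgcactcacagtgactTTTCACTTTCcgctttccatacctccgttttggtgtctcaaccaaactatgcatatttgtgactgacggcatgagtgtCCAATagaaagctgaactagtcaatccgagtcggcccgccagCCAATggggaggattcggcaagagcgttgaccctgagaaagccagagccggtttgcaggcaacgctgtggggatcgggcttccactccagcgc
Psmg4 (chr13:34162714-34163013, + strand): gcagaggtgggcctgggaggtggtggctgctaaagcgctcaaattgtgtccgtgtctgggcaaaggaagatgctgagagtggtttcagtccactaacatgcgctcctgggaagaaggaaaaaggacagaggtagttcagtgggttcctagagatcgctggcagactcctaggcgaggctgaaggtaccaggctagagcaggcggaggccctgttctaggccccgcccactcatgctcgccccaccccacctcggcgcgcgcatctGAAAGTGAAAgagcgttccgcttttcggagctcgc
Psmb5 (chr14:54617946-54618245, - strand): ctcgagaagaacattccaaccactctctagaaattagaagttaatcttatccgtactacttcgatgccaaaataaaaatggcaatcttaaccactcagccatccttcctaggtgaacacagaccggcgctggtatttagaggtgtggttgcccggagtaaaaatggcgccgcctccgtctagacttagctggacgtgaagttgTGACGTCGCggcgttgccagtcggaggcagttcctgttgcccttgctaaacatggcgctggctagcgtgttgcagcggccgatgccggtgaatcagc
Psmb6 (chr11:70525107-70525406, + strand): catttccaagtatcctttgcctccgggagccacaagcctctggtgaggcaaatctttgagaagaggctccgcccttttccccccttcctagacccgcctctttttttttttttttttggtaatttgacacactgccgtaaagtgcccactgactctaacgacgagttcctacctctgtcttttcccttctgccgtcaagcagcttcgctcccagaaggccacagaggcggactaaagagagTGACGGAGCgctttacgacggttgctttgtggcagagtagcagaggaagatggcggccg
Psmb8 (chr17:34197945-34198244, + strand): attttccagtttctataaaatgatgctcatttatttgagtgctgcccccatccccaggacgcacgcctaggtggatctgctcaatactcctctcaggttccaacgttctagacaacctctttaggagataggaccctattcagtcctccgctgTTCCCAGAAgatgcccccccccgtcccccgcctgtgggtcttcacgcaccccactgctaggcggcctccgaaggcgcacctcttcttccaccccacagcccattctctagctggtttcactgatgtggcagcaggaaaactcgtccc
Psmb9 (chr17:34187281-34187580, - strand): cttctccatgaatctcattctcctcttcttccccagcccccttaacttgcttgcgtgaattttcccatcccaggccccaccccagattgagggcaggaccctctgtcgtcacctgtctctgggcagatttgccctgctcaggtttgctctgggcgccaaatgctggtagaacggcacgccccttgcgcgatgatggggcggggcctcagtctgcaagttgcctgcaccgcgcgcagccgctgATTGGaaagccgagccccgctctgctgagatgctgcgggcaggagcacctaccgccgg

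Of the 49 genes, 41 had a promoter in the RefSeq table, with 44 promoters in all. TGACNNNGC was found in 13.6% of these 44, against 12.4% of all 32851 promoters. CCAAT was found in 31.8% of the 44, against 37.4% of all promoters. It was in 6 of 12 promoters of the constitutive 20S genes and in 4 of 15 promoters of the 19S subunits. Of these 27 promoters of 20S and 19S subunits, 10 held it (37.0%), which is near the share of all promoters. The interferon-type element was found in 11.4% of the 44, which is 5 promoters, against 3.44% of all promoters. The 5 were those of Psmb3, Psmd4, Psmd9, Psme1 and Psmg4, and 0 of the 3 immune subunit promoters held it. TTCNNNGAA was found in 6.82% of the 44, against 8.30% of all promoters. In the stretches printed, Psmb5 and Psmb6 each hold TGACNNNGC, Psmb3 holds CCAAT on its own strand at 2 positions and the interferon-type element on the other strand, and Psmg4 holds the interferon-type element. The Psmb8 stretch holds TTCNNNGAA and the Psmb9 stretch holds CCAAT on its other strand. These matches describe the letters of the window and were not tested for binding. The Psmb8 and Psmb9 windows lie inside the annotated gene models, which begin farther upstream, at chr17:34197721 and chr17:34187764. Bases before those gene starts were not part of the windows of these genes.

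The immune subunits Psmb8, Psmb9 and Psmb10 replace Psmb5, Psmb6 and Psmb7 in immunoproteasomes, which are abundant in blood cells and are induced by interferon. None of the 3 was called higher or lower by limma, although all 3 were higher at an unadjusted p under 0.05 (15.9% of all genes). Their median log2 fold change was 1.22. Psmb8 was at 22.2, 29.1, 28.6 and 37.0 FPKM in CKO replicates 1 to 4, against 23.6, 13.6, 8.11 and 7.25 FPKM in control replicates 1 to 4. Control replicate 1 reached into the CKO range, and the log2 fold change was 1.22 (SE 0.34, adjusted p = 0.0628 by limma). Psmb9 was at 17.7, 22.2, 19.1 and 15.7 FPKM in CKO replicates 1 to 4, against 15.1, 6.99, 6.29 and 4.03 FPKM in control replicates 1 to 4. The groups did not overlap, with a log2 fold change of 1.24 (SE 0.32, adjusted p = 0.0539 by limma).

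Psmb10 was at 25.8, 29.7, 33.0 and 71.7 FPKM in CKO replicates 1 to 4, against 23.3, 15.8, 11.5 and 14.9 FPKM in control replicates 1 to 4. CKO replicate 4 stood far above the other CKO libraries, and the log2 fold change was 1.16 (SE 0.33, adjusted p = 0.0666 by limma). Control libraries spread more for the immune than for the constitutive subunits, with a median coefficient of variation of 57.3% for the 3 immune genes and 12.4% for the 14 constitutive 20S genes. Psmb8 and Psmb9 are neighbours on chromosome 17, with gene starts 9957 bases apart, and both were highest among controls in replicate 1. Summed B cell markers were at 455 FPKM in control replicate 1, against 74.3 to 189.8 FPKM in the other controls, and their part in these values was not tested.

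The ratio of an immune subunit to its constitutive counterpart in the same library is not changed by a scaling factor shared by all genes of that library. Psmb8 was at 24.3%, 34.5%, 25.2% and 29.2% of Psmb5 in CKO replicates 1 to 4, against 32.1%, 24.2%, 16.5% and 10.7% in control replicates 1 to 4. The groups overlapped, and the difference of mean log2 ratios was 0.54 (SE 0.36, exact permutation p = 0.2, 0.6 when adjusted over the 3 ratios). Psmb9 was at 12.7%, 16.7%, 9.95% and 5.70% of Psmb6 in CKO replicates 1 to 4, against 17.9%, 10.03%, 8.94% and 4.11% in control replicates 1 to 4. The difference was 0.22 on the log2 scale (SE 0.55, exact permutation p = 0.714, adjusted 1). Psmb10 was at 32.3%, 33.9%, 23.4% and 76.4% of Psmb7 in CKO replicates 1 to 4, against 39.4%, 40.3%, 28.7% and 38.7% in control replicates 1 to 4. The difference was 0.038 (SE 0.38, exact permutation p = 1), with CKO replicate 4 above every control library and CKO replicate 3 below every control library. A shift towards or away from immune subunits was therefore not detectable in these ratios at this spread. The smallest p of this permutation test is 0.0286. After adjustment over the 3 ratios, a shift in 1 pair alone could not have come under 0.05. Settings that treat genes unequally moved the difference between the log2 fold changes of the counterparts, which was not tested there. For Psmb8 minus Psmb5 it was 0.47 as deposited, 0.79 with quantile normalization and 0.99 with a trend against transcript length removed, and for Psmb9 minus Psmb6 it was 0.0997, 0.62 and 0.55.

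**Figure D3:**
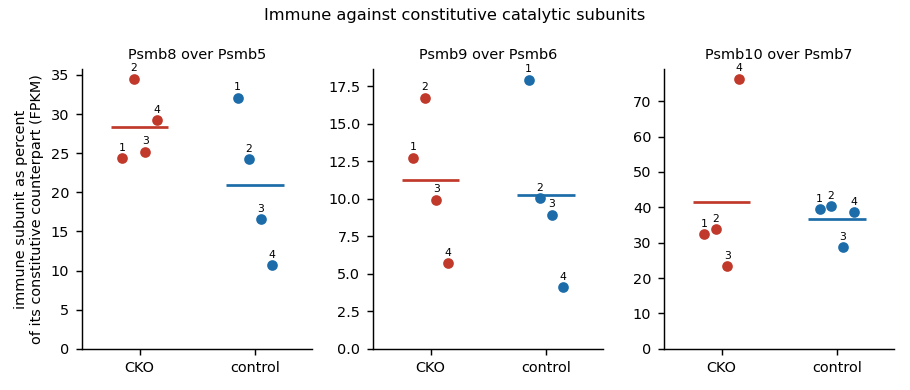
FPKM of each immune beta subunit as a percent of its constitutive counterpart, by library, with the replicate number above each point and a line at the group mean. CKO and control libraries overlap in all 3 panels, and the 76.4% of CKO replicate 4 stands apart in the panel of Psmb10 over Psmb7.

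The 19S particle had smaller differences than the core. Of its 17 subunit genes, 1 was called higher (3.88% of all genes) and 0 lower (0.651%), so the count called is near the share over all genes. At an unadjusted p under 0.05, 13 were higher (15.9% of all genes). For 12, every CKO library was above every control library (12.7% of all genes). The median log2 fold change was 0.70, against 1.02 for the 14 constitutive 20S genes. The 6 ATPases of the base, which unfold substrates, had a median of 0.81 (range 0.64 to 0.99). None was called by limma, although all 6 were higher at an unadjusted p under 0.05 (15.9% of all genes). Psmc1 was at 71.7, 69.9, 71.0 and 107 FPKM in CKO replicates 1 to 4, against 56.6, 36.9, 36.2 and 38.8 FPKM in control replicates 1 to 4. Both groups had 3 libraries close together and 1 high one, and the log2 fold change of 0.91 (SE 0.23) missed the threshold (adjusted p = 0.0504 by limma). Psmc3 was at 80.1, 76.3, 91.5 and 147 FPKM in CKO replicates 1 to 4, against 60.6, 49.8, 45.4 and 50.1 FPKM in control replicates 1 to 4, with a log2 fold change of 0.88 (SE 0.24, adjusted p = 0.0611 by limma).

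The 11 non-ATPase subunits of the 19S particle ranged from 0.034 to 0.96 on the log2 scale, with a median of 0.65. Psmd13, a subunit of the lid, was called higher. It was at 55.3, 47.4, 68.1 and 79.1 FPKM in CKO replicates 1 to 4, against 32.4, 31.6, 30.8 and 32.7 FPKM in control replicates 1 to 4. The controls lay close together and far below the lowest CKO library, with a log2 fold change of 0.92 (SE 0.20, adjusted p = 0.0408 by limma). Psmd14, which encodes the lid's deubiquitinase, had 36.4 to 55.8 FPKM in CKO libraries and 20.9 to 28.7 FPKM in control libraries (0.80, SE 0.20, adjusted p = 0.0512 by limma).

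At the other end were Psmd11, Psmd2, Psmd1 and Psmd3, which were singled out after their values were seen. Psmd11, a lid subunit, was at 16.2 to 19.4 FPKM in CKO libraries and 15.4 to 19.8 FPKM in control libraries (0.034, SE 0.18). Psmd2 and Psmd1, the large scaffold subunits of the base, had log2 fold changes of 0.21 (SE 0.17) and 0.30 (SE 0.19), and that of the lid subunit Psmd3 was 0.35 (SE 0.27). None of these 4 passed the threshold. With equal FPKM totals all 4 were below 0, from -0.41 for Psmd11 to -0.11 for Psmd3.

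Within a library, the mean log2 FPKM of the 19S subunits was below that of the constitutive 20S subunits by more in CKO than in control libraries. The 19S minus 20S difference was -0.72, -0.71, -1.27 and -0.71 in CKO replicates 1 to 4, against -0.57, -0.44, -0.52 and -0.59 in control replicates 1 to 4. The groups did not overlap, and their means differed by -0.32. For the non-ATPase subunits alone the means differed by -0.41 without overlap, and for the ATPases by -0.16 with overlap. Without CKO replicate 3, whose value lay far below the others, the 19S minus 20S means differed by -0.18, those of the non-ATPase subunits by -0.28 and those of the ATPases by -0.0045. Without CKO replicate 4 those of the ATPases differed by -0.26, without overlap. Set against the 20S mean of the same library, 7 of the 49 genes had every CKO library below every control library, where 45.9% of all genes tested did, so this count is no result about the proteasome genes. The 7 were Psme4 (-1.38), Psmd11 (-0.95), Psmd2 (-0.78), Psmf1 (-0.73), Psmd5 (-0.72), Psmd1 (-0.68) and Psmd7 (-0.33). Psmg4 was the gene with every CKO library above (0.57), as 0.62% of all genes were. Beta subunits stood above alpha subunits by 0.61 ± 0.34 in CKO libraries and 0.56 ± 0.05 in control libraries (SD, n = 4 each), with overlap.

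That order of core and 19S genes runs along with transcript length. The longest protein-coding transcript had a median of 1162.5 bases for the constitutive 20S genes and 1819 bases for the 19S subunits, against 3086 bases for all genes tested. Across the 49 genes the Spearman correlation of log2 fold change with transcript length was -0.58, and across 12116 genes with a known length it was -0.63. These values describe genes measured in the same 8 libraries, which are not independent of each other. The shortest transcript, Psmg4 at 555 bases, had the highest fold change, and the longest, Psme4 at 6491 bases, had the lowest. When a trend against length was removed in each library, the median log2 fold change was 0.33 for the constitutive 20S genes and 0.40 for the 19S subunits, so their order turned. Over the 49 genes it was then 0.34, against -0.016 for all genes, with 42 of the 49 above 0 (48.2% of all genes), 12 higher at an unadjusted p under 0.05 (7.64% of all genes) and 0 called by limma.

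**Figure D4:**
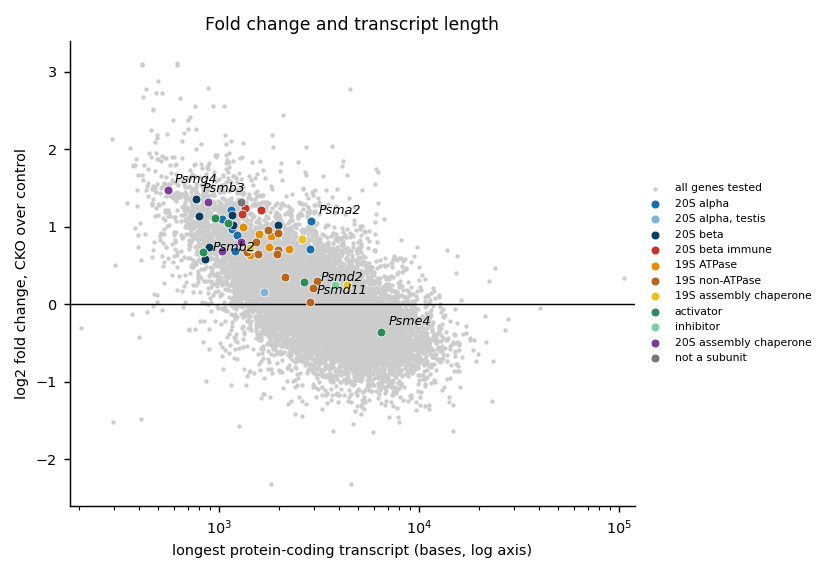
Log2 fold change of FPKM + 1 (CKO over control) against longest protein-coding transcript length in bases, on a log axis, for the 49 genes coloured by role and for all genes tested in grey. Both clouds slope down, with Psmg4 and Psmb3 at the short end near 1.4 and Psme4 at the long end at -0.36.

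The gene with the largest fold change of the set, Psmg4, encodes a chaperone of 20S assembly. Psmg1 and Psmg2, and Psmg3 and Psmg4, encode 2 pairs that guide the alpha ring together, and their median log2 fold change was 1.06. Psmg4 was at 23.7, 25.7, 39.3 and 36.6 FPKM in CKO replicates 1 to 4, against 14.6, 9.39, 7.08 and 11.9 FPKM in control replicates 1 to 4. The groups stood well apart, with a log2 fold change of 1.47 (SE 0.26, adjusted p = 0.0388 by limma). Its partner Psmg3 was at 14.4, 18.2, 19.4 and 38.0 FPKM in CKO replicates 1 to 4, against 10.1, 7.14, 6.15 and 8.36 FPKM in control replicates 1 to 4. CKO replicate 4 was the highest library, and the log2 fold change was 1.32 (SE 0.29, adjusted p = 0.0410 by limma). Psmg2 (0.80, adjusted p = 0.0578) and Psmg1 (0.69, adjusted p = 0.151) did not pass the limma threshold. With the length trend removed Psmg4 was at 0.19 and Psmg3 at 0.41 on the log2 scale, and neither was called.

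Psmd5, Psmd9 and Psmd10 chaperone the assembly of the 19S base. Psmd9 was at 17.4, 14.1, 17.7 and 19.8 FPKM in CKO replicates 1 to 4, against 9.55, 9.09, 7.85 and 10.1 FPKM in control replicates 1 to 4. The CKO libraries were closer together than for most core genes, and the log2 fold change was 0.84 (SE 0.19, adjusted p = 0.0410 by limma). With a transcript of 2597 bases Psmd9 is longer than most of the set, and its log2 fold change was 0.75 with the length trend removed. Psmd10 (0.73, adjusted p = 0.158) and Psmd5 (0.25, adjusted p = 0.592) did not pass the limma threshold.

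Activators open the core in place of the 19S particle. Psme1 and Psme2 encode the subunits of PA28, which is inducible by interferon and paired with immunoproteasomes, and their gene starts lie 12990 bases apart on chromosome 14. Psme1 was at 56.7, 59.9, 72.7 and 117 FPKM in CKO replicates 1 to 4, against 47.0, 35.7, 30.5 and 28.9 FPKM in control replicates 1 to 4. Psme2 was at 39.2, 33.0, 57.6 and 68.9 FPKM in CKO replicates 1 to 4, against 34.0, 20.1, 16.8 and 18.6 FPKM in control replicates 1 to 4. Control replicate 1 was the highest control for both genes and overlapped the CKO range for Psme2. Neither passed the threshold by limma (log2 fold changes 1.05 and 1.11, adjusted p = 0.0523 and 0.0571). Psme2b is an intronless near copy of Psme2, so reads may be split between them and its values are uncertain (0.67, SE 0.39).

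Psme3, which encodes the nuclear activator PA28 gamma, had 20.6 FPKM in CKO replicate 4 and 47.3 to 51.9 FPKM in the other CKO libraries, against 26.1 to 38.1 FPKM in control libraries. Psme4, which encodes the large nuclear activator PA200, was at 15.1, 15.8, 11.1 and 8.72 FPKM in CKO replicates 1 to 4, against 15.4, 18.1, 16.8 and 14.5 FPKM in control replicates 1 to 4. It was the gene of the set with a log2 fold change below 0 (-0.36, SE 0.22, adjusted p = 0.339 by limma), and that value was -0.032 with the length trend removed. Psmf1, the gene of the inhibitor PI31, had 7.51 to 13.7 FPKM in CKO libraries and 7.16 to 9.92 FPKM in control libraries (0.24, SE 0.22).

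Psmc3ip, the gene that only shares the name, was called higher. It was at 8.08, 8.20, 12.2 and 9.19 FPKM in CKO replicates 1 to 4, against 5.995, 3.57, 2.75 and 1.41 FPKM in control replicates 1 to 4. Its log2 fold change of 1.32 (SE 0.31, adjusted p = 0.0453 by limma) was within the range of the proteasome genes proper.

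The CKO libraries differed among themselves more than the controls did. The coefficient of variation was higher in CKO than in control libraries for 37 of the 49 genes, with medians of 28.5% in CKO libraries and 13.2% in control libraries. Over all genes tested it was higher in CKO libraries for 9942 of 12748, with medians of 34.8% in CKO libraries and 18.96% in control libraries. CKO replicate 4 was the highest of all 8 libraries for 26 genes and CKO replicate 3 for 20, while control replicate 3 was the lowest for 26. The mean of CKO replicates 1 and 2 was above the control mean for 48 of the 49 (65.3% of all genes), with a median log2 difference of 0.63, against 0.16 over all genes. Without CKO replicates 3 and 4, 39 of the 49 were higher at an unadjusted p under 0.05, where 22.9% of all genes were, and 0 were called by limma.

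Against the mean of CKO replicates 1 and 2, both CKO replicate 3 and CKO replicate 4 were higher for 27 of the 49 genes, CKO replicate 3 alone for 11, CKO replicate 4 alone for 8 and neither for 3. Psmb3 was among the 27, at 1.32 in CKO replicate 3 and 0.97 in CKO replicate 4 on the log2 scale. Psme3, Psma3, Psmc6 and Psmd3 moved in opposite directions in the 2 libraries, while Psmb10 was higher in both. These genes were singled out after their values were seen. Against the mean of CKO replicates 1 and 2, CKO replicate 4 was at -1.22 for Psme3, -0.87 for Psma3 and -0.65 for Psmc6 on the log2 scale, and at 1.34 for Psmb10 and 1.03 for Psmd3. CKO replicate 3 was at 0.95 for Psmc6, 0.91 for Psma3, 0.24 for Psmb10 and 0.077 for Psme3, and at -0.14 for Psmd3. Across the 49 genes, the difference of CKO replicate 4 correlated with transcript GC content at a Spearman rho of 0.65, and that of CKO replicate 3 at -0.32. Across 12116 genes those values were 0.54 and -0.17. With GC trends removed in each library, the median log2 fold change of the 49 was 0.76 and 14 were called higher, against 5.1% of all genes.

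**Figure D5:**
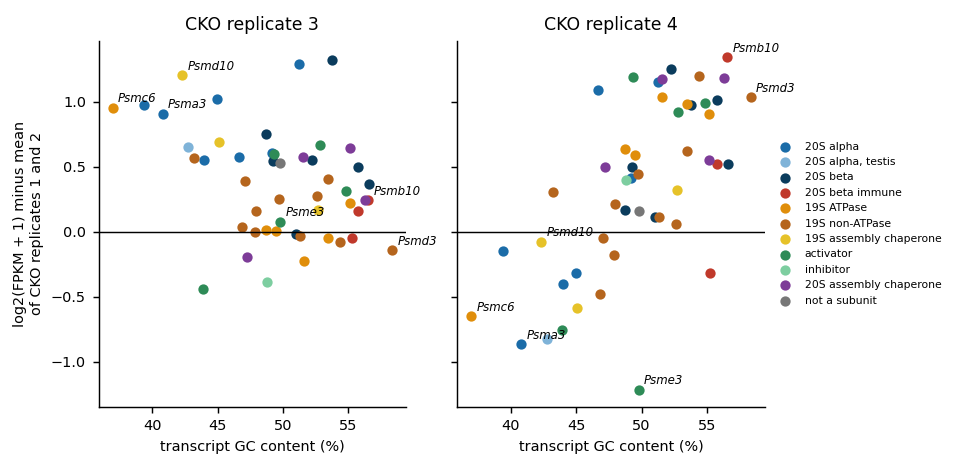
Log2(FPKM + 1) of CKO replicate 3 (left) and CKO replicate 4 (right) minus the mean of CKO replicates 1 and 2, against transcript GC content in percent, for the 49 genes coloured by role. Differences are larger at high GC content in replicate 4 (rho 0.65) and lean the other way in replicate 3 (rho -0.32). Examples are Psmc6 and Psma3 at low and Psmd3 at high GC content, while Psmb10 lies above 0 in both panels.

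Y-linked genes were listed at 0 FPKM in CKO replicates 1 to 3 and control replicate 1. They summed to 17.5 FPKM in CKO replicate 4 and to 37.4 to 42.2 FPKM in control replicates 2 to 4. This split, which points to the sex of the mice, nearly follows genotype. Among the libraries without Y-linked expression (3 CKO, 1 control), 47 of the 49 genes were higher in CKO, with a median log2 difference of 0.44, against 0.14 over all genes. Among those with it (1 CKO, 3 control), 42 of the 49 were higher in CKO, with a median of 1.24, against -0.24 over all genes. With Y-linked expression as a covariate, 46 of the 49 were above 0 and 31 were higher at an unadjusted p under 0.05, where 12.2% of all genes were, with 0 called by limma. With the marrow markers as a covariate, 44 of the 49 were above 0 and 14 were higher at an unadjusted p under 0.05, where 6.38% of all genes were, with 0 called. The neutrophil and erythroid sums did not overlap between the groups, so this fit cannot cleanly part those cells from genotype.

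Genes that work with the proteasome were taken from lists that do not follow the Psm naming. Of 20 accessory genes in the table, 2 were called higher (3.88% of all genes were) and 0 lower (0.651% of all genes were). In log2 fold change 10 were above and 10 below 0, with a median of 0.11. At an unadjusted p under 0.05, 5 were higher (15.9% of all genes) and 1 lower (9.45% of all genes), the ubiquitin receptor gene Ubqln2 (-0.66, SE 0.22, adjusted p = 0.107 by limma). Sem1, which encodes the smallest 19S subunit, was at 106, 88.96, 199 and 193 FPKM in CKO replicates 1 to 4, against 63.9, 29.6, 30.7 and 36.1 FPKM in control replicates 1 to 4. Its log2 fold change was 1.83 (SE 0.34, adjusted p = 0.0388 by limma). Pomp, the maturation factor that builds the beta ring, was at 57.3, 54.9, 85.7 and 74.8 FPKM in CKO replicates 1 to 4, against 36.3, 23.4, 21.9 and 29.7 FPKM in control replicates 1 to 4. Its log2 fold change was 1.27 (SE 0.23, adjusted p = 0.0388 by limma). Both stood above their controls in every library, as 6 of the 20 did (12.7% of all genes), while the 19S ubiquitin receptor gene Adrm1 overlapped (0.48, SE 0.29). For 1 of the 20, Ube3c, every CKO library was below every control library (6% of all genes).

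Of 9 genes of transcriptional regulators, none was called by limma or passed an unadjusted p under 0.05. Of all genes, 15.9% were higher and 9.45% lower at that unadjusted p. Nfe2l1, which encodes NRF1, was at 23.96, 23.3, 18.4 and 18.6 FPKM in CKO replicates 1 to 4, against 28.2, 25.5, 25.1 and 27.4 FPKM in control replicates 1 to 4. Every CKO library was below every control library for this 1 of the 9, as for 6% of all genes. The log2 fold change of -0.33 (SE 0.18) did not pass (adjusted p = 0.278 by limma). It was -0.13 with the length trend removed. Nfe2l2, which encodes the related factor NRF2, had 6.16 to 18.3 FPKM in CKO libraries and 12.1 to 15.5 FPKM in control libraries (-0.47, SE 0.30, adjusted p = 0.366).

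Of 22 genes of class I antigen presentation and interferon response in the table, 20 passed the filter and none was called by limma, while 2 were higher at an unadjusted p under 0.05. That is a smaller share than the 15.9% of all genes, and 3.88% of all genes were called higher, so these 2 counts are no result about these genes. The log2 fold change was above 0 for 18 of the 20 and below 0 for 2, where 51.1% of all genes were above 0. Isg15, an interferon-induced ubiquitin-like protein, was at 9.93, 10.8, 13.3 and 6.46 FPKM in CKO replicates 1 to 4, against 8.47, 2.04, 0.845 and 0.750 FPKM in control replicates 1 to 4. Control replicate 1 was again the high control and lay inside the CKO range (1.802, SE 0.48, adjusted p = 0.0590). Irf7, an interferon regulatory factor, showed the same overlap with control replicate 1 (0.82, SE 0.26, adjusted p = 0.0860). The median log2 fold change of the 20 was 0.36, against 0.015 over all genes tested and 1.22 for the 3 immune subunits.

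The authors' deposited table gives its own comparison. There, in the authors' deposited table, 39 of the 49 had a p-value under 0.05 and were higher in CKO, against 16.2% of its 14457 genes, and 1, Psme4, was lower, against 12%. After adjustment here of the p-values in the authors' deposited table, 32 of the 49 were higher, against 8.4% of all genes.

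The annotated models of 24 of the 49 genes overlap another annotated gene, and those of 8 overlap a gene that is itself in the table. Among the genes called, these are Psma2 with AW209491 on the same strand, and Psmb7 with Nek6, Psmd13 with Sirt3 and Psmc3ip with Mlx on opposite strands. No strand setting of the counting is given in the sources used here, so reads in the shared stretches cannot be assigned and these values carry that uncertainty. In GRCm38 the gene with the highest fold change, Psmg4, lies at chr13:34162964-34178173 on the + strand, Psmb3 at chr11:97703399-97713500 on the + strand and Psme4 at chr11:30771726-30880361 on the + strand.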

How the data were processed

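Per the labels' protocols, RNA came from TRIzol extraction and the library kit was NEBNext Ultra. The submitters' processing notes name CASAVA 1.8, fastp, HISAT2 2.0.5, featureCounts 1.5.0-p3, DESeq2 1.20.0 and the GRCm38 build, with no role or order. How strand was treated, and which annotation was used, is not given in the sources used here. FPKM of the 8 libraries, computed by the authors, make up the deposited table, per the file headers. It also holds the authors' p-value and log2 fold change of each gene, per the file headers, and that log2 fold change has the sign of the CKO minus control mean for all 49 proteasome genes. Low FPKM values did not give whole reads (mean distance 0.206 to 0.229 from a whole number, against 0.25 by chance), so depth is unknown, no counting interval is given and no count test was run.

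Groups and replicate numbers came from the sample titles. Log2(FPKM + 1) was fitted over genes that reached 1 FPKM in 4 or more libraries (12748 kept, 1709 left out) with limma 3.58.1 in R 4.3.3, using eBayes with a trend, genotype as sole term and Benjamini-Hochberg adjustment. A pseudocount of 1 understates the change of low genes. Ratios of immune to constitutive subunits were compared by exact two-sided permutation tests over 70 assignments, with a smallest possible p of 0.0286. The fit was tested on simulated data. Lengths, GC content and coordinates came from GENCODE M21 on GRCm38, where 49 of the 49 genes were found, and promoters from RefSeq on GRCm38.p6. Protein sequences were not used here.

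The genes, pathway lists and marker lists were chosen with earlier results of these data known. A further pathway list is not reported here. Values in every library are given for Psmb5 to Psmb10, for genes past the threshold, for the 2 genes of smallest p in a class with none, and for the genes of lowest and highest fold change, and other genes named were chosen after their values were seen. Alternatives covered scaling, filters, pseudocount, a loess trend (span 0.4) against length, the replicate number as a block, covariates and left-out libraries. Removal of GC trends, and the other settings tried for the 19S minus 20S and immune minus constitutive differences, were added after seeing the data.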

Additional observations from a re-analysis of the deposited data

Results flagged for a closer look

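Among 106 groups of 4 values examined (each group of each of the 49 genes, of the 3 ratios and of Slc26a2), 18 held a library whose gap to the nearest of the others took up more of the group's range than Dixon's test allows for 4 samples. Chance gives about 1 in 20 such groups, and genes of the same libraries are not independent. Of the 18, 9 were in CKO replicate 4, 2 in CKO replicate 3 and 7 in control libraries, 3 of them in control replicate 1.

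CKO replicate 4 stood above the other CKO libraries for Psmb10 (71.7 FPKM), for the ATPase genes Psmc1 (107 FPKM), Psmc2 (69.3 FPKM), Psmc4 (95.8 FPKM) and Psmc5 (140.4 FPKM), and for Psmd3 (110.3 FPKM) and Psmd4 (158 FPKM). It stood below the other CKO libraries for Psmd1 (26.6 FPKM) and Psme3 (20.6 FPKM). CKO replicate 3 stood above the others for Psma2 (75.9 FPKM) and Psmd10 (17.7 FPKM).

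Control replicate 1 stood above the other controls for Psmb7 (59.2 FPKM), Psmc1 (56.6 FPKM) and Psmc2 (37.6 FPKM). Control replicate 4 was apart for Psmb4 (92.3 FPKM, high), control replicate 3 for Psmc4 (32.3 FPKM, low) and for Psmb10 as a percent of Psmb7 (28.7%, low), and control replicate 2 for Slc26a2 (7.49 FPKM, high).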

How the results depend on the processing

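Of 49 proteasome genes and of all genes tested, the number called (12 and 578) was 0 and 0 with median-of-ratios scaling, equal FPKM totals, the length trend removed, length and GC trends removed, the Y-linked covariate, the marrow covariate, and without CKO replicates 3 and 4. It was 1 and 358 with quantile normalization, 6 and 381 without a filter, 24 (of 48 tested) and 837 with a filter at 5 FPKM, 9 and 478 with a pseudocount of 0.1, and 14 and 1441 with the GC trend removed. Leaving out 1 library gave 0 to 33 proteasome genes and 0 to 1885 genes in all. The cause of these differences was not tested. Whether the replicate numbers pair the libraries is not given in the labels. Correlations of deviations were -0.034, 0.23, -0.26 and 0.43 for same-numbered pairs. They ran from -0.41 to 0.45 for the other pairs, so they cannot settle this. The replicate block gave 2 and 274. For the ratios, adjusted permutation p-values with the block were 0.75, 0.75 and 1. Swaps within 4 pairs allow too few assignments for a p under 0.05, so nothing is concluded from these ratio values.

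Slc26a2 kept its direction in the fits run but lost its call with median-of-ratios scaling (-1.35), equal totals (-1.65), the length trend removed (-0.96), length and GC trends removed (-1.02), the Y-linked covariate (-1.35), the marrow covariate (-1.44) and without CKO replicates 3 and 4 (-0.85). Leaving out 1 library gave -1.56 to -1.16, with the call lost in 6 of the 8 fits (all but those without CKO replicate 4 or control replicate 1; highest adjusted p 0.165), and at 5 FPKM it was not tested. The log2 ratios ranged over left-out libraries from -0.16 to 0.55 for Psmb9 to Psmb6, from -0.31 to 0.26 for Psmb10 to Psmb7 and from 0.26 to 0.79 for Psmb8 to Psmb5.

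Genes whose log2 fold change turned sign had not been called. With equal totals they were Psma8 (-0.071), Psmd1 (-0.15), Psmd11 (-0.41), Psmd2 (-0.25), Psmd3 (-0.11), Psmd5 (-0.17), Psme3 (-0.17) and Psmf1 (-0.18). With quantile normalization they were Psmd11 (-0.12), Psmd2 (-0.21), Psmd3 (-0.11) and Psme3 (-0.019). With the length trend removed they were Psma8 (-0.20), Psmb2 (-0.35), Psmb5 (-0.15), Psmd11 (-0.0068), Psme2b (-0.28) and Psmg1 (-0.080). With length and GC trends removed they were Psma1 (-0.032), Psma8 (-0.28), Psmb2 (-0.33), Psmb5 (-0.094), Psmd11 (-0.025), Psme2b (-0.28) and Psmg1 (-0.063), and with GC alone Psmd11 (-0.0060). With the Y-linked covariate they were Psma8 (-0.34) and Psme3 (-0.15), and with the marrow covariate Psma8 (-0.28), Psmd11 (-0.082), Psme2b (-0.0054) and Psme3 (-0.17). Without CKO replicates 3 and 4, Nfe2l2 was at 0.055. Over left-out libraries Psma8 ranged from -0.079 to 0.42 and Psmd11 from -0.024 to 0.089. With FPKM alone, depth limits cannot be stated, and 4 libraries a group limit the precision.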
